A study of Mus musculus with 4 samples.

Results

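Cytoplasmic ribosomal protein genes encode the proteins of the 40S and 60S subunits of the ribosome, and were examined here as a housekeeping group in a map of SMAD4 binding in alveolar macrophages (AMs). They were taken as all genes with a curated protein-coding RefSeq transcript whose symbol is Rpl or Rps followed by a digit, with the Rps6k kinases left out, which gave 87 of 20923 protein-coding genes. Of the 87, 73 encode structural proteins, 43 of the large and 30 of the small subunit. The other 14 are paralogues or related genes such as Rpl3l, a striated muscle paralogue of Rpl3, and Rps19bp1, which encodes a binding partner of Rps19. Another 7 structural genes have symbols that the rule does not take, among them Rpsa, Rplp0, Rplp1, Rplp2, Fau and Rack1, and are described separately.

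AMs, the resident macrophages of the airspaces, came from bronchoalveolar lavage of young adult wild-type C57BL/6J mice and were purified by flow cytometry. No treatment was given and no genotype was compared. Binding was measured by HT-ChIPmentation, in which a transposase adds sequencing adapters to the precipitated chromatin while it is still on the beads. The series has 4 samples, of which 2 are SMAD4 immunoprecipitations (replicates 1 and 2) and 2 are inputs, which enter only as the control level behind each peak. Nothing in the labels says that the replicates are separate mice, and no SMAD4-deficient cells were used.

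SMAD4 is the common partner of the receptor-activated SMAD proteins, which carry signals of the TGFβ family to the nucleus, where they bind together with the transcription factors of the cell type. Ribosomal protein genes are transcribed in every growing cell from compact promoters, many rich in CpG dinucleotides, and most of their mRNAs start with a stretch of pyrimidines, the terminal oligopyrimidine (TOP) motif, through which their translation is tied to growth signals.

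Replicate 1 had 16369 peaks and replicate 2 had 19015, and 10964 regions were shared, meaning that peaks of both overlapped by at least 1 bp. The number of fragments stacked at each summit was recovered from the fold enrichment and p of the peak caller. The background level was 2.08 fragments in replicate 1 and 1.22 in replicate 2, and at that level a peak needed at least 9 and 7 fragments to be listed. All 8 AM marker genes, among them Pparg, Siglecf and Marco, were the closest gene of at least 1 shared region. They had 28 regions in all, of which 11 were at Pparg and 1 at Siglecf. Of 8 markers of other lung and blood cells, 2 were the closest gene of a shared region, S100a8 and Ncr1, with 3 regions. Among all protein-coding genes the share was 21.5%, and 2 of 8 is not below it.

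A SMAD4 summit at a ribosomal protein promoter was seldom found in both replicates. Within 1 kb of a transcription start site (TSS), replicate 1 had a summit at 1 of 87 ribosomal protein genes (1.15%), where 4.58% of all protein-coding genes had one. Replicate 2 had a summit at 8 of 87 (9.2%), against 8.19% of all genes. Over both replicates the share was 5.17% ± 5.69 (SD, n = 2) for ribosomal protein genes and 6.38% ± 2.55 for all genes, so that the replicates differed by more than the groups of genes did. Shared regions had a summit at 1 of 87 (1.15%), Rps27a, against 3.92% of all genes. At 1 kb, the share in replicate 2 was near that of all genes and that in replicate 1 below it. In narrower windows the replicate 2 share was above that of all genes, with 9.2% against 4.02% within 250 bp and 9.2% against 5.68% within 500 bp. In replicate 1 it was 1.15% against 1.92% within 250 bp and 1.15% against 2.83% within 500 bp. No test of any of these differences was made.

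The peaks of replicate 2 at these promoters had, with 1 exception, no counterpart in replicate 1. Of the 8 genes, 7 (87.5%) had a promoter summit in replicate 2 alone, whereas 51.3% of the 1713 genes of all kinds with a promoter summit in replicate 2 lacked one in replicate 1. For all genes, replicate 2 had 1.79 times as many genes with a promoter summit as replicate 1. The 8 ribosomal protein peaks had a median of 12 fragments, a median fold enrichment of 5.87 and a median width of 166 bp. The 1794 promoter peaks of replicate 2 as a whole had medians of 14 fragments, 6.32-fold and 234 bp. For all 8 the ribosomal protein gene had the closest TSS. All 8 summits (100%) lay within 250 bp of the TSS, at a median of 132 bp, compared with 45.8% and a median of 293 bp for all promoter peaks of that replicate. GC content in 201 bases around the summit had a median of 55.5% at the 8 peaks, 49.8% at all promoter peaks and 43.8% at all peaks of replicate 2. The corresponding medians of replicate 1 were 46.8% at all promoter peaks and 41.3% at all peaks. The higher GC content and the lower background level of replicate 2 stood beside its larger number of promoter peaks, and their part in it was not tested.

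**Figure D1:**
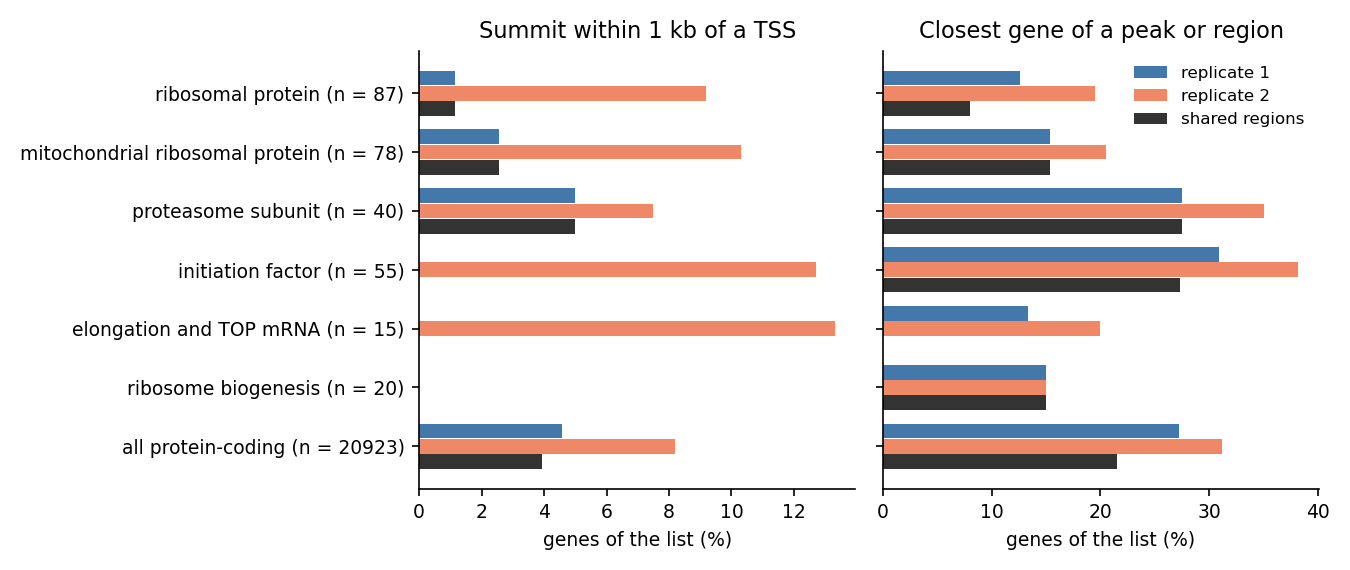
Share of the genes of each list (x axis, percent) with a SMAD4 summit within 1 kb of a TSS (left) or closest to at least 1 peak or region (right), in replicate 1, replicate 2 and shared regions; n is the number of genes and a missing bar stands for 0. Ribosomal protein genes had a promoter summit in 1.15%, 9.2% and 1.15%, and all protein-coding genes in 4.58%, 8.19% and 3.92%.

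Among large-subunit genes, 5 of 43 (11.6%) had a promoter summit in replicate 2, against 8.19% of all genes. In replicate 1 and in shared regions it was 0 of 43, against 4.58% and 3.92% of all genes. Rpl41, which encodes a very short basic peptide, had a summit 220 bp upstream of its TSS with 17 fragments and 8.12-fold enrichment in replicate 2. The closest peak of replicate 1 lay 175640 bp away. Rpl3, whose protein lies near the peptidyl transferase centre, had the same 17 fragments and 8.12-fold enrichment 82 bp upstream, and its closest peak of replicate 1 was 172298 bp away. These were the highest values at any ribosomal protein promoter, above the median of all promoter peaks of replicate 2 but well below their maximum of 52.3-fold. Rpl30, which encodes a small protein of the large subunit, had 15 fragments and 7.22-fold enrichment 17 bp downstream of the TSS, in its own exon. Rpl10a, whose protein forms the L1 stalk, had 13 fragments and 6.32-fold enrichment 226 bp upstream. Rpl23a, whose protein sits at the exit of the nascent peptide tunnel, had 9 fragments and 4.51-fold enrichment 2 bp upstream of the TSS, which is close to the smallest number of fragments that gave a peak.

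Among small-subunit genes, 2 of 30 (6.67%) had a promoter summit in replicate 2, against 8.19% of all genes. In replicate 1 and in shared regions it was 1 of 30 (3.33%), against 4.58% and 3.92% of all genes. The replicate 2 shares of the subunits thus lay on either side of that of all genes. Rps21 had 11 fragments and 5.41-fold enrichment 114 bp upstream in replicate 2, and no peak of replicate 1 within 129119 bp. The remaining gene with a promoter summit in replicate 2 was Rps19bp1, which is not a structural protein gene, with 9 fragments and 4.51-fold enrichment 160 bp upstream. Rpl23a and Rps19bp1 were named after their values were seen, to complete the count.

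Rps27a, which encodes a fusion of ubiquitin with a protein of the small subunit, was the 1 member with a shared promoter region. The region lies at chr11:29548068-29548266 in mm10. Replicate 1 had 13 fragments and 4.55-fold enrichment there, with a summit 95 bp upstream of the Rps27a TSS, and replicate 2 had 11 fragments and 5.41-fold enrichment, with a summit 151 bp upstream. Both values were low for the list, since only 12.4% of the 10964 shared regions had a smaller fold below that of this region (the smaller of the replicates' folds). The position is not particular to Rps27a. The gene Clhc1 starts 213 bp from the mean summit, which lies in a Clhc1 intron, and the region could be assigned to either promoter. A second shared region lay 1629 bp upstream of Rps27a, also in a Clhc1 intron, with 4.87-fold and 7.67-fold enrichment in replicates 1 and 2.

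**Figure D2:**
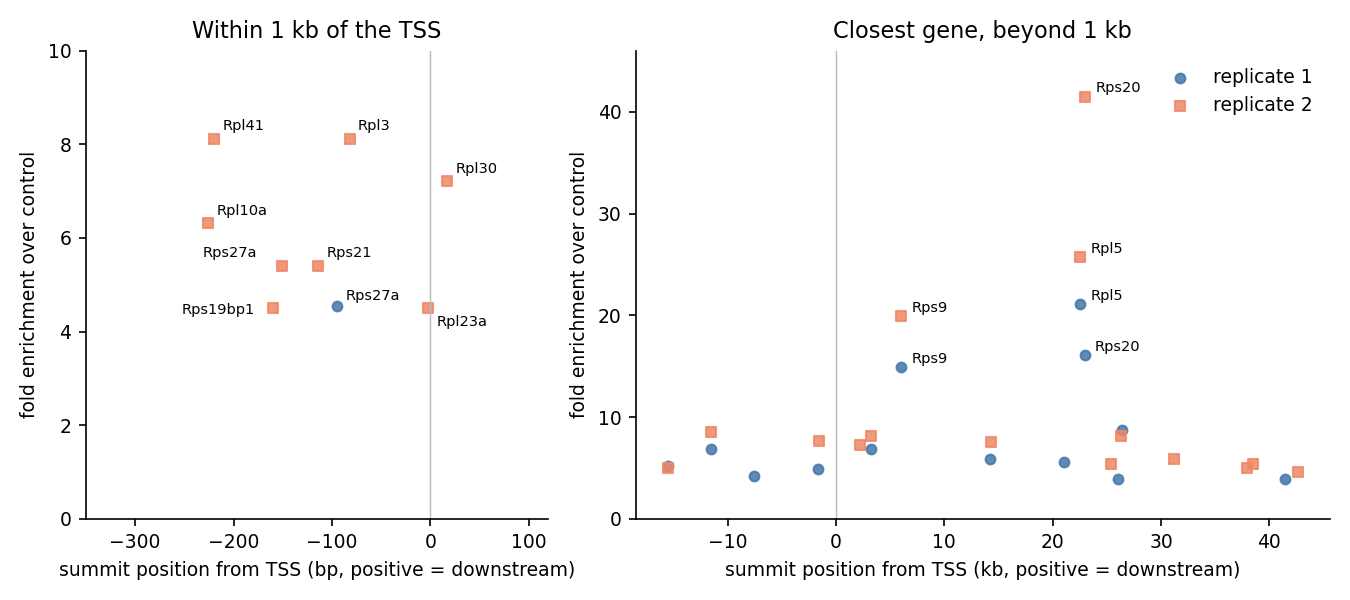
Fold enrichment over control (y axis) against the position of the summit from the TSS (x axis, in bp on the left and kb on the right) for peaks within 1 kb of a ribosomal protein TSS (left) and for other peaks whose closest TSS was that of a ribosomal protein gene (right), 1 point per peak in replicate 1 (circles) or replicate 2 (squares). All promoter peaks were at or below 8.12-fold, the strongest distal peaks belonged to Rps20, Rpl5 and Rps9, and 4 peaks farther than 50 kb are not drawn.

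Promoter sequences of 67 of the 87 genes and of 16769 protein-coding genes in all were matched in RefSeq GRCm38.p6 (mm10), from 250 bases before to 50 bases after the TSS. Of the 8 genes with a promoter summit in replicate 2, 4 had a sequence. The next lines show the promoters of Rpl41, Rpl10a and Rps21, the 3 structural genes with a summit in replicate 2 and a sequence. Those of Rpl12 and Rpl13 follow, the first in order of symbol that had a pyrimidine run of at least 6 at the TSS and no summit within 1 kb. For Rpl12, the closest summit of replicate 2 was just outside that window, at 1302 bp from the TSS. Each promoter sequence runs 5′ to 3′ on the sense strand, from 150 bases before the TSS through the first 30 bases of the transcript. Capitals mark the ETS string CCGGAAGT, or the run of at least 6 pyrimidines that reaches within 10 bases of the TSS.
Rpl41 (chr10:128549139-128549318, minus strand): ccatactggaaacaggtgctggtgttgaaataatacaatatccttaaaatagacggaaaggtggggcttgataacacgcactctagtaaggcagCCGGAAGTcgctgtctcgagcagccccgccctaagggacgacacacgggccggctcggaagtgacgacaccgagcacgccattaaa
Rpl10a (chr17:28328321-28328500, plus strand): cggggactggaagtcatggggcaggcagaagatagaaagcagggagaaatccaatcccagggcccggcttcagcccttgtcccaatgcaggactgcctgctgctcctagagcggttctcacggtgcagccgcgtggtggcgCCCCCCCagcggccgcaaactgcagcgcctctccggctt
Rps21 (chr2:180257229-180257408, plus strand): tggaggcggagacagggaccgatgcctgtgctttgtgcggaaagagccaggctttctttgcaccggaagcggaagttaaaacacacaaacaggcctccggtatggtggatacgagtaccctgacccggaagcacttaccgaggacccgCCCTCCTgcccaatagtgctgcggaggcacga
Rpl12 (chr2:32961562-32961741, plus strand): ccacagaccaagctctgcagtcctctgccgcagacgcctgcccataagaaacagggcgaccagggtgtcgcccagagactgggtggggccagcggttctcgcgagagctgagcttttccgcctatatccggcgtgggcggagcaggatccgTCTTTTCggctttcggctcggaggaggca
Rpl13 (chr8:123102200-123102379, plus strand): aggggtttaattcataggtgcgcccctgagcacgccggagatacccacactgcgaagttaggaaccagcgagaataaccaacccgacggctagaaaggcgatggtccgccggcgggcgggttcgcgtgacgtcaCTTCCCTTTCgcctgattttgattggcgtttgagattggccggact
Rpl10a, Rps21 and Rpl12 each had a run of 7 pyrimidines and Rpl13 a run of 10, and in Rpl41, where the run was of 3, the ETS string stood at positions -56 to -49. Rpl41, with 49.3% GC, was the 1 promoter of the 5 under the GC minimum of 50% for a CpG-rich promoter (GC of at least 50% and a ratio of observed to expected CpG of at least 0.6).

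Some features were more frequent in the ribosomal protein promoters than in all promoters, as a description without a test. Each gene counted once. It held a string or a run if any of its curated promoters did, and its CpG class came from its first promoter by position. A pyrimidine run of at least 6 was found in 59.7% of the 67 and in 33.5% of all promoters. CpG-rich promoters made up 73.1% and 46.7%. The ETS string CCGGAAGT was in 16.4% against 5.88%, and the YY1 string AAGATGGC in 8.96% against 3.62%, on either strand. In CpG-rich promoters of all genes, the class of most of the 67, the shares of the ETS and YY1 strings were 9.63% and 5.63%, and that of the pyrimidine run was 29.6%. Strings of factors that bind with SMADs or in macrophages followed no single direction. The SMAD string GTCTGG was in 14.9% (10 of 67) against 20.3%. The AP-1 string TGANTCA was in 2.99% (2 of 67) against 8.21%, and the CEBP string TTGCNNAA in 7.46% (5 of 67) against 11.6%. The SMAD palindrome GTCTAGAC was in 0% against 0.268% (45 of 16769), so rare that 0 of 67 gives no direction. The further SMAD string GGCGCC was in 19.4% (13 of 67) against 17.9%, and the PU.1 string GAGGAAGT in 4.48% (3 of 67) against 3.68%. In the CpG-rich promoters of all genes these shares were 18.9% for GTCTGG, 0.255% for the palindrome, 3.98% for AP-1, 7.48% for CEBP, 30.7% for GGCGCC and 2.67% for PU.1. Against that class, AP-1 and CEBP strings stood at nearly the same share in ribosomal protein promoters, and GGCGCC at a lower one. Such matches describe the sequence and do not show that a factor binds.

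Promoter class was also compared. A gene was classed by its first promoter by position, and a summit within 1 kb of any of its TSS was counted. Of the 7831 genes of all kinds classed as CpG-rich, 5.66% had a summit in replicate 1, 10.9% in replicate 2 and 4.76% in shared regions. Of the 49 ribosomal protein genes of that class, 0, 3 and 0 had one. These counts leave out Rps27a, Rpl3, Rpl30 and Rpl23a, which had no promoter sequence.

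Beyond the promoters, 11 of 87 ribosomal protein genes (12.6%) were the closest gene of at least 1 peak in replicate 1, against 27.2% of all protein-coding genes. In replicate 2 there were 17 (19.5%), against 31.2%. The mean over replicates was 16.1% ± 4.88 (SD, n = 2) for ribosomal protein genes and 29.2% ± 2.83 for all genes. For shared regions the count was 7 of 87 (8.05%), against 21.5% of all genes. Here the ribosomal protein genes had the lower share in both replicates and in shared regions. The 7 genes were Rpl5, Rps20, Rps9, Rps14, Rpl30, Rpl7l1 and Rps27a, with 10 shared regions between them. The summits of these regions fell in introns (5), in intergenic sequence (4) or in an exon (1), and the 6 inside genes were all in a gene other than the ribosomal protein gene.

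The 3 strongest regions were distal. Rpl5, whose protein binds 5S rRNA and, free of the ribosome, the p53 inhibitor MDM2, had a shared region at chr5:107922665-107923436, 22520 bp downstream of its TSS in an intron of Dipk1a. It held 64 fragments and 21.1-fold enrichment in replicate 1 and 56 fragments and 25.7-fold enrichment in replicate 2, and ranked 354 of 10964 by the smaller fold. Rps20, which encodes a protein of the head of the small subunit, had one at chr4:3812404-3813031, in intergenic sequence 22969 bp downstream. There, replicate 1 had 53 fragments and 16.1-fold enrichment, and replicate 2 had 91 fragments and 41.5-fold enrichment, the highest value near any ribosomal protein gene. The next TSS, that of the kinase gene Mos, was 59419 bp away. Rps9, whose protein takes part in decoding accuracy, had one at chr7:3709810-3710314, intergenic and 5984 bp downstream, with 45 fragments and 14.9-fold enrichment in replicate 1 and 43 fragments and 19.9-fold in replicate 2. The next TSS, 10357 bp away, was that of Pirb, an inhibitory receptor of myeloid cells. A further shared region 8438 bp from the Rps9 TSS, with 18.2-fold and 28.9-fold enrichment, was closer to Pirb (7903 bp). All of these were above the highest promoter peak of any ribosomal protein gene in both replicates.

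The sequences around the mean summit of the distal regions at Rpl5, Rps20 and Rps9 are given next, as 161 bases of the plus strand of mm10. Both regions of Rpl5 are shown because the weaker one held the SMAD palindrome, which was noticed after the search. Capitals mark matches on either strand to the CEBP string TTGCNNAA, the SMAD string GTCTGG or the SMAD palindrome GTCTAGAC.
Rpl5, strongest region (chr5:107922968-107923128): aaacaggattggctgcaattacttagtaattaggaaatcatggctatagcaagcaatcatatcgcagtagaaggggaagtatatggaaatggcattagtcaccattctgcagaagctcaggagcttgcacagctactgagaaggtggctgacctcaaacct
Rps20 (chr4:3812606-3812766): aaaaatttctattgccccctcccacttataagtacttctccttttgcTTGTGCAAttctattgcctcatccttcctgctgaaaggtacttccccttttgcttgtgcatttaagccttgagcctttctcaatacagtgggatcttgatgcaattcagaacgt
Rps9 (chr7:3709945-3710105): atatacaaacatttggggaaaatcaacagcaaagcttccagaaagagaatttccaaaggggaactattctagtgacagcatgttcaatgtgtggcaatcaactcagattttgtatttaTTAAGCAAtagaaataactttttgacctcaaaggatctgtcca
Rpl5, second region (chr5:107926788-107926948): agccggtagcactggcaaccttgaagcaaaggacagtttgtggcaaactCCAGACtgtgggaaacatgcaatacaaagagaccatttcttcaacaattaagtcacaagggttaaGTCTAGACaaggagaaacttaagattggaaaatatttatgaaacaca
The windows of Rps20 and Rps9 each held a CEBP string, and the strongest region of Rpl5 held none of the 12 strings searched. The second region of Rpl5, 26340 bp downstream of the TSS and also in Dipk1a, held GTCTGG and GTCTAGAC. It had 26 fragments and 8.77-fold enrichment in replicate 1, and 17 fragments and 8.12-fold enrichment in replicate 2. In windows of 201 bases at all 10964 shared regions, the CEBP string was found in 40.9%, GTCTGG in 11.2% and the palindrome in 0.465%. Of the 10 windows nearest to ribosomal protein genes, 5 held the CEBP string and 1 the palindrome.

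The remaining shared regions were weaker. Rps14, a small-subunit gene, had a region 11522 bp upstream with 6.82-fold and 8.57-fold enrichment in replicates 1 and 2. Rps9 had a second one 3255 bp downstream with 6.82-fold and 8.12-fold. Rpl30 had a region 14259 bp downstream, in an intron of Matn2, with 5.85-fold and 7.54-fold, so that the promoter peak of replicate 2 was not its only SMAD4 peak. Rpl7l1, a paralogue that acts in assembly of the large subunit, had a region 15533 bp upstream, in an exon of Bicral, with 5.2-fold and 4.96-fold.

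Peaks of a single replicate were also closest to ribosomal protein genes. Rps15a, a small-subunit gene, had one in its own intron, 2223 bp downstream, with 15 fragments and 7.22-fold enrichment in replicate 2. Rpl5 had 1 more peak in replicate 1 and 3 more in replicate 2, all in Dipk1a introns, at 10 to 22 fragments.

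The small share of ribosomal protein genes closest to a region was set beside the space around them. The median length of sequence closer to a ribosomal protein gene than to any other TSS was 15.5 kb, against 42.3 kb for all genes, and the median gene length was 2.97 kb against 16.8 kb. Another protein-coding TSS lay within 1 kb of 13 of the 87. Per megabase of such sequence there were 2.34 shared regions at ribosomal protein genes and 4.59 at all genes. Few loci weigh heavily on the first value. Of the 4.28 Mb at ribosomal protein genes, 999 kb lay at Rpl10l, which is not structural, 374 kb at Rps15a, 311 kb at Rps24 and 200 kb at Rpl34. None of these genes had a shared region, and the density without them was not computed. Among genes with under 10 kb, 0 of 30 ribosomal protein genes and 4.33% of all genes had a shared region, and from 10 to 30 kb it was 3 of 29 (10.3%) and 11.7%. From 30 to 100 kb it was 4 of 20 (20%) and 24.4%. In the widest class, over 100 kb, it was 0 of 8 and 35.3%. The share of ribosomal protein genes was below that of all genes in each of the 4 classes, by the least from 10 to 30 kb and by the most over 100 kb.

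**Figure D3:**
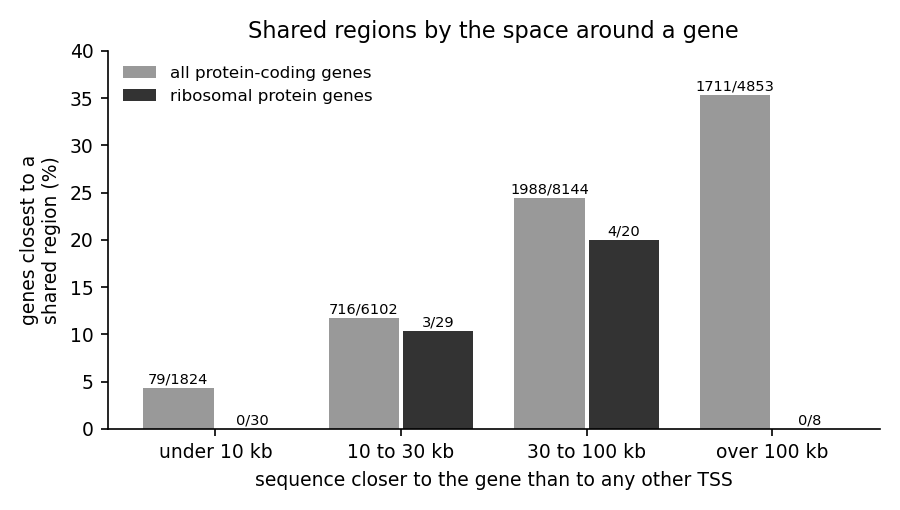
Share of genes that were the closest gene of at least 1 shared region (y axis, percent) by the length of sequence closer to the gene than to any other TSS (x axis), for all protein-coding genes (grey) and ribosomal protein genes (black), with counts above the bars. From 30 to 100 kb the shares were 24.4% and 20%, and the ribosomal protein genes with under 10 kb or over 100 kb had no region.

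Without regard to which gene was closest, shared regions became as frequent around ribosomal protein genes as around others only at a distance. Within 5 kb of the TSS, 4.6% of ribosomal protein genes and 9.97% of all genes had a shared summit, and within 10 kb the shares were 8.05% and 14.6%. Within 50 kb they were 39.1% and 37.5%, and within 100 kb 56.3% and 54.2%. In replicate 2 the share at 50 kb was 66.7% against 51.4%, whereas in replicate 1 it was 43.7% against 44.3%. Of the 7 genes with a shared summit within 10 kb, 5 (Rpl14, Rpl23a, Rpl36al, Rpl3l and Rps19bp1) had no region of their own by closest TSS. The region 8238 bp from Rps19bp1 was 884 bp from the TSS of Atf4, a transcription factor of the amino acid and stress response, with 7.8-fold and 12.6-fold enrichment in replicates 1 and 2. The region 6020 bp from Rpl23a was 566 bp from the TSS of Tlcd1, with 5.2-fold and 13.1-fold. That 2550 bp from Rpl36al was nearer to Mgat2, an enzyme of N-glycan synthesis, by 91 bp (2459 bp).

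**Figure D4:**
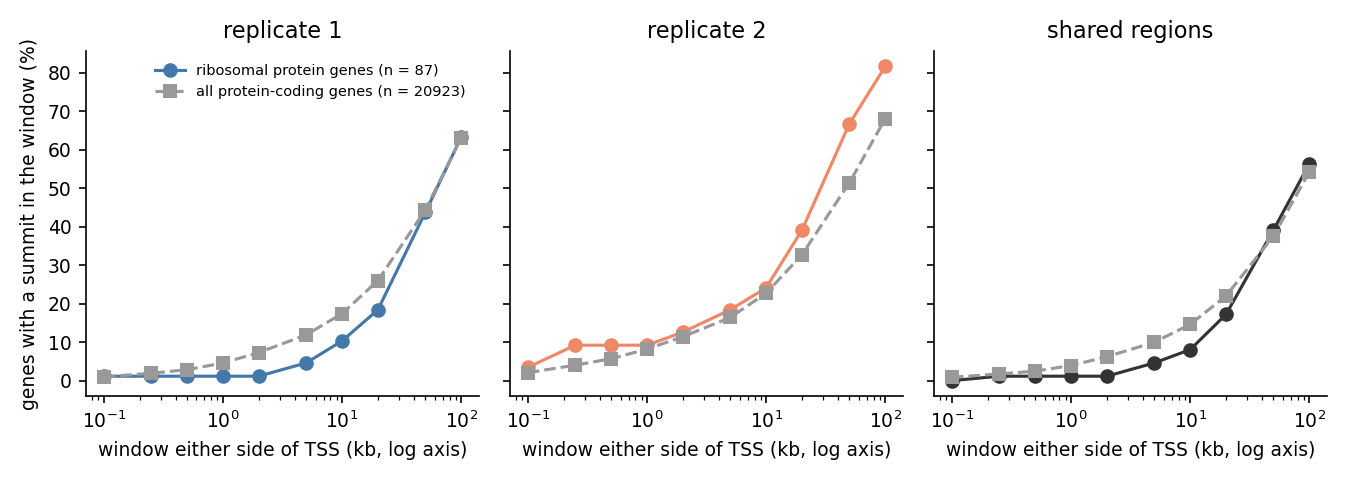
Share of ribosomal protein genes (coloured or black circles, n = 87) and of all protein-coding genes (grey squares, n = 20923) with a summit within a window on either side of a TSS (x axis, kb, log scale; y axis, percent), for replicate 1, replicate 2 and shared regions. For shared regions the ribosomal protein genes were at 4.6% and all genes at 9.97% within 5 kb, and at 56.3% and 54.2% within 100 kb.

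The 7 structural genes outside the symbol rule included Rpsa and Rack1 of the small subunit, Fau, which encodes a fusion of a ribosomal protein with a ubiquitin-like protein, and the stalk genes Rplp0, Rplp1 and Rplp2. Of these, Rplp2 had a shared promoter region at chr7:141447042-141447404, 384 bp upstream, with 11 fragments and 3.9-fold enrichment in replicate 1 and 10 fragments and 4.96-fold in replicate 2. Rplp1 had a shared region 211859 bp downstream with 7.47-fold and 12.2-fold enrichment. Rplp0 was closest to a peak in replicate 2 alone, 24327 bp upstream, with 24 fragments and 11.3-fold. No peak or region was closest to Rpsa, Rack1 or Fau. With the 73 structural genes, 2 of 80 (2.5%) had a shared promoter region, against 3.92% of all genes.

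Other housekeeping groups were counted in the same way, beside promoter summits in 4.58%, 8.19% and 3.92% of all genes in replicate 1, replicate 2 and shared regions. Mitochondrial ribosomal protein genes had a promoter summit in 2, 8 and 2 of 78 (2.56%, 10.3% and 2.56%), in the same order, with Mrpl45 and Mrpl52 in all 3. Proteasome subunit genes had one in 2, 3 and 2 of 40 (5%, 7.5% and 5%), with Psmb3 and Psmd4 in all 3. Translation initiation factor genes had one in 0, 7 and 0 of 55 (12.7% in replicate 2), among them Eif4a1 and Eif5a in replicate 2. That list was taken by symbol, Eif followed by a digit. It therefore also holds genes that are not initiation factors, such as Eif4ebp1 among the 7, and Eif2ak2 and Eif2ak3. Of 15 elongation factor and other TOP mRNA genes, Eef1a1 and Hnrnpa1 had one in replicate 2 and 0 in replicate 1, and 20 ribosome biogenesis genes had 0 in either. A shared region was closest to 12 of the mitochondrial ribosomal (15.4%), 11 of the proteasome (27.5%) and 15 of the initiation factor genes (27.3%), against 21.5% of all genes. Against the same 21.5%, it was closest to 0 of the elongation and TOP mRNA genes and 3 of the biogenesis genes (15%). These 3 were Dkc1, Larp1 and Polr1a, from a list fixed by name. The lists overlap, since Eif3e and Eif3h are in both the initiation factor and the TOP mRNA list.

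The genome also carries many processed copies of ribosomal protein mRNAs. Of 308 annotated ribosomal protein pseudogenes, 2 (0.649%) had a shared summit within 1 kb of their start, Rpl18-ps1 and Rpl21-ps1, against 0.586% of 10408 pseudogenes of all kinds. Reads from exons can match such copies, so that values over exons, such as the Rpl30 summit of replicate 2, are uncertain. The part of these copies in the counts was not tested.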

How the data were processed

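Reads were trimmed (cutadapt), mapped to mm10 (Bowtie2) and filtered for duplicates and mapping quality by the authors, who then ran MACS3 on each sample with input as control and a q-value threshold of 0.05. The deposited columns used for a peak are its fold ratio, its −log10 p and its −log10 q-value. The fold ratio was read as summit fragments over control level, each with 1 added. The deposited score of each peak was not used. Fragments at the summit were solved from fold and p for all peaks but 1, with a tolerance of 0.001 in −log10 p, and recovery was tested on simulated data. The inputs enter through the control level only, and sequencing totals were not used.

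Gene models were curated RefSeq transcripts of GRCm38.p6 (mm10) on 20 chromosomes. A promoter summit lay within 1 kb of a TSS of a protein-coding gene. The closest gene was taken over 45657 curated coding and non-coding transcripts. A shared region joined peaks that overlapped by at least 1 bp, and its summit was the mean of the strongest summits of each replicate. Replicate numbers were in accession order. Members and lists were chosen with earlier results of these data known, so counts are descriptions beside the share of all genes, without tests. Named genes were all members with a shared promoter region, the 5 strongest with a promoter summit in 1 replicate, the 5 strongest distal ones and the 7 genes outside the symbol rule, and a few genes are counted but not reported here by name. Other genes were named after their values were seen. Alternatives covered the window, peak and overlap thresholds, annotation and membership. Python 3.11.15, pandas 2.3.3 and scipy 1.17.1 were used.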

Additional observations from a re-analysis of the deposited data

How the results depend on the processing

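Of 53 alternative values, 41 were within 1.5 times the reported count. Some of the 41 could not differ. Limiting the closest TSS to protein-coding genes does not enter the promoter counts, and cutting both lists to the length of replicate 1 leaves that list as it was. A window of 500 bp left 1, 8 and 1 ribosomal protein genes with a summit in replicate 1, replicate 2 and shared regions. All genes then had shares of 2.83%, 5.68% and 2.46%, so that the replicate 2 share of 9.2% was above that of all genes. A window of 5000 bp gave 4, 16 and 4 ribosomal protein genes in the same order, against 11.9%, 16.4% and 9.97% of all genes. A fold enrichment of at least 5 left 0 in replicate 1 and 0 in shared regions, against 3.03% and 2.82% of all genes. A reciprocal overlap of 50% left 0 in shared regions, against 2.88%. Rps27a was lost in each case. With the 7 further ribosomal protein genes, 2 of 94 genes (2.13%) had a summit in replicate 1 and 2 in shared regions, the second being Rplp2. The shares of all genes were 4.58% and 3.92%. With predicted transcripts, 3 of 87 genes (3.45%) were closest to a shared region, against 18.5% of all genes. Taking the peaks of 1 replicate in place of shared regions gave 1 to 8 genes with a promoter summit and 11 to 17 closest genes. Without replicate 1 these were 8 (9.2%, against 8.19% of all genes) and 17 (19.5%, against 31.2%). Without replicate 2 they were 1 (1.15%, against 4.58%) and 11 (12.6%, against 27.2%). Counts restricted to the 73 structural genes were chosen after seeing the data. For promoter summits in replicate 1, replicate 2 and shared regions they were 1, 7 and 1 (1.37%, 9.59% and 1.37%), against 4.58%, 8.19% and 3.92% of all genes. For closest genes of shared regions the count was 6 (8.22%), against 21.5%. No paired analysis was possible because the study has 1 condition with peak lists, and replicate numbers were given in accession order. A gene without a peak may hold fewer fragments than the 9 or 7 that a peak needed, which is not absence of binding.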
